A study of Mus musculus with 6 samples.

Results

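The 10 genes described here encode transcription factors and coactivators that control fat cell formation: Pparg, Cebpa, Cebpb, Cebpd, Klf15, Zfp423, Ebf1, Ebf2, Prdm16 and Ppargc1a. They were taken by gene symbol from the platform annotation of the array, and all 10 were found, on 11 of the 21789 probe sets that carry exactly 1 symbol. They are 10 of the 19938 genes tested. The samples were dermal cells of neonatal C57BL/6 mice, kept in culture for 2 days and profiled on 6 one-colour Affymetrix arrays. The 3 arrays labelled DMSO, after the solvent, are the control. The 3 arrays labelled FR had forskolin, which activates adenylyl cyclase, together with RepSox, an inhibitor of the TGF-β type I receptor kinase, each at 20 µM. The compounds were never given apart, so what each contributed cannot be told apart.

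Fat cell formation runs through a cascade of transcription factors. C/EBPβ and C/EBPδ, leucine zipper proteins, come on early and help to switch on PPARγ, a nuclear receptor that binds DNA with RXR, and C/EBPα, and these last factors then maintain each other and the genes of the mature fat cell. ZFP423 and the EBF proteins mark and commit precursors, and KLF15 is a zinc finger factor of later differentiation. PRDM16 and EBF2 are known from brown and beige fat, and PGC-1α, the product of Ppargc1a, is a coactivator of mitochondrial genes whose transcription responds to cyclic AMP in brown fat and liver.

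With FR, 7 of the 10 regulators rose, none fell, and 3 did not pass the test. A gene passed at a Benjamini-Hochberg adjusted p under 0.05 in limma, adjusted over all 19938 genes. Over all genes 27.9% passed, 13.4% higher and 14.5% lower with FR. Pparg rose 4.66-fold, Cebpa 3.78-fold and Zfp423 2.25-fold. Ppargc1a rose 2.56-fold on its brighter probe set and less on its other one. The rises of Klf15, Cebpd and Cebpb lay between 1.24-fold and 1.35-fold. The median log2 change was 0.41 for the 10 regulators and 0.05 for all genes. The FR and DMSO arrays did not overlap for 9 of the 10, against 43.9% of all genes. These members were gathered with earlier results of the same arrays known, so the counts describe them and are no independent evidence of a direction.

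**Figure D1:**
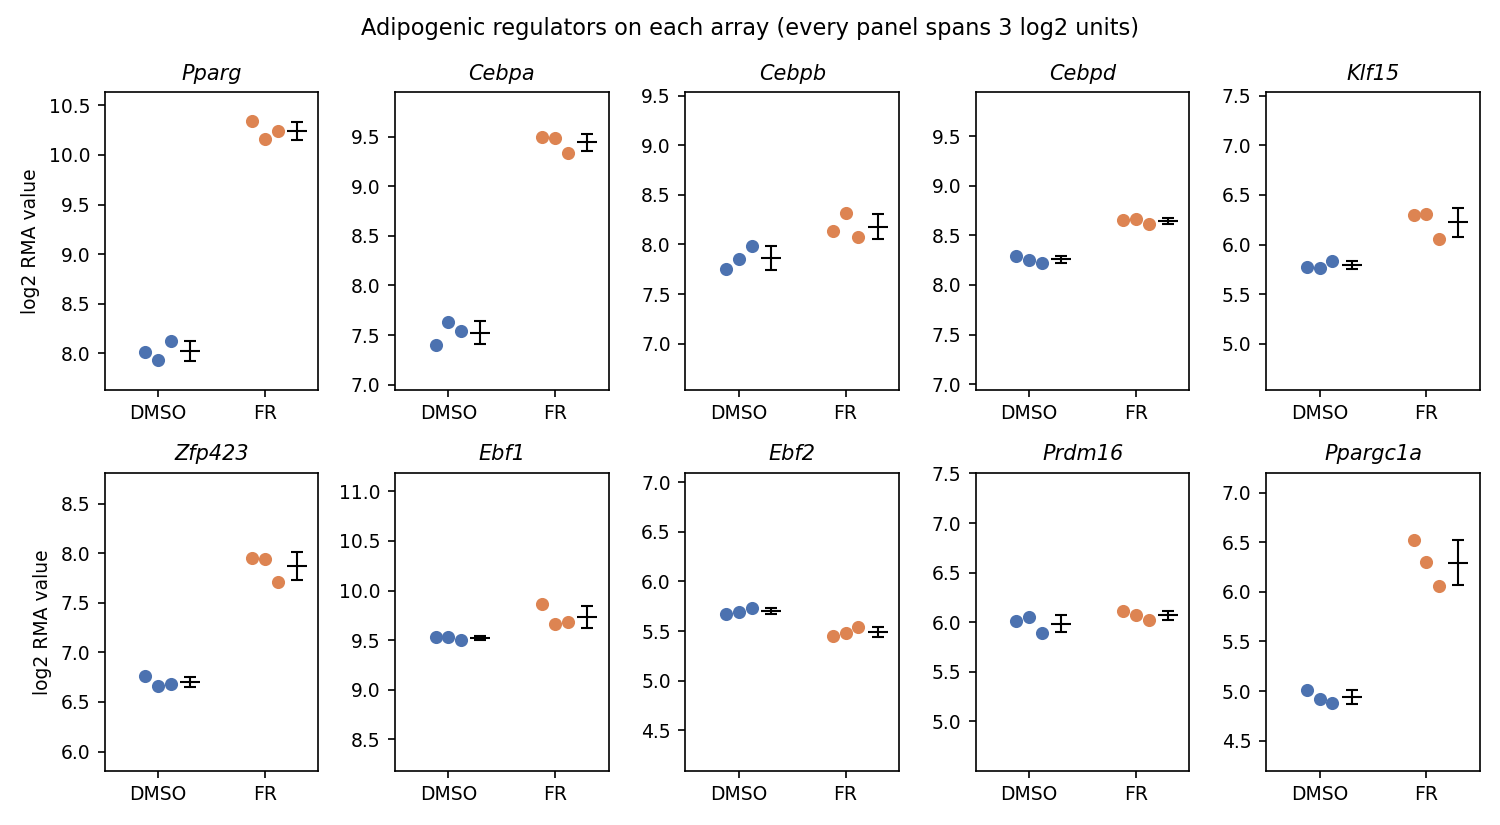
Log2 RMA value (y axis) of each regulator on each array, with DMSO in blue and FR in orange; bars beside the points give the mean and SD of 3 arrays, and every panel spans the same number of log2 units. Pparg, Cebpa, Zfp423 and Ppargc1a stand well apart between the groups, while Prdm16 overlaps.

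The cultures carried the RNA of fibroblasts on every array. All 10 measured fibroblast markers lay above 5.65, the 95th percentile of 1027 olfactory receptor genes in DMSO, which are taken as a guide to background. The olfactory receptor genes themselves had a median log2 change of 0.14, and how far this touches the dim regulators Klf15, Ppargc1a, Prdm16 and Ebf2 was not tested. The mean level of these markers was 10.95 to 10.97 in DMSO and 10.56 to 10.66 in FR. They moved apart, with 3 higher, 5 lower (80% passed, against 27.9% of all genes) and a median log2 change of -0.38. The collagen genes Col1a2 and Col1a1 fell by 1.57 and 1.09 and the receptor gene Pdgfrb by 0.96, while Col3a1 rose by 0.66. The part of this shift in the changes of the regulators was not tested. Median values of the arrays ran from 5.98 to 6.00 in DMSO and from 6.01 to 6.07 in FR. In such bulk samples, a change in the number of cells of a type and a change in RNA per cell cannot be told apart.

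Pparg encodes the nuclear receptor at the centre of the fat cell programme. Its log2 values were 8.01, 7.93 and 8.13 in DMSO and 10.34, 10.16 and 10.24 in FR. Every FR array lay above every DMSO array, with little spread in either group. The log2 change was 2.22 (SE 0.09, n = 3 per group, limma adjusted p = 7.39e-08), the 35th largest rise among all genes. The gene has a single probe set on this array, annotated to several of its transcripts, so its isoforms were not told apart.

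Cebpa encodes C/EBPα, the partner of PPARγ in mature fat cells. It stood at 7.40, 7.63 and 7.54 in DMSO and at 9.50, 9.49 and 9.34 in FR. The groups were again far apart, and the log2 change of 1.92 (SE 0.09, adjusted p = 1.76e-07) ranked 61st among the rises of all genes. Over the 15 alternatives tried, the log2 change ran from 2.17 to 2.32 for Pparg and from 1.85 to 2.02 for Cebpa, and both genes passed in each.

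Cebpb and Cebpd, which encode the early C/EBP factors, moved far less. All arrays are from day 2, so any earlier change of these genes was not measured. Cebpd stood at 8.29, 8.25 and 8.22 in DMSO and at 8.66, 8.66 and 8.61 in FR. Its arrays were the most tightly grouped of the 3 C/EBP genes, and the log2 change was 0.39 (SE 0.08, adjusted p = 0.00388). Cebpb stood at 7.76, 7.85 and 7.99 in DMSO and at 8.14, 8.32 and 8.08 in FR. The highest DMSO array came close to the lowest FR array, and the log2 change was 0.31 (SE 0.10, adjusted p = 0.0348). With DMSO replicate 1 left out the log2 change was 0.26 and no longer passed (limma adjusted p = 0.13). The same held with DMSO replicate 2 left out (0.31, 0.0941 for the adjusted p) or FR replicate 2 left out (0.24, 0.106).

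The C/EBP genes were compared with each other by their differences within each array, whose absolute size has no meaning across probe sets but whose shift between groups does. Cebpa minus Cebpb averaged -0.34 ± 0.12 over the DMSO arrays and 1.26 ± 0.10 over the FR arrays (± SD, n = 3). The shift of 1.60 means that Cebpa rose more than Cebpb on the log2 scale, with no overlap between arrays of the groups (two-sided exact permutation p = 0.1, the smallest that 3 against 3 arrays can give). Cebpa minus Cebpd shifted by 1.53, from -0.73 ± 0.14 to 0.80 ± 0.06, with the same exact p of 0.1. Cebpb minus Cebpd overlapped between the groups, at -0.39 ± 0.15 and -0.47 ± 0.10, a shift of -0.07 (exact permutation p = 0.7). With 1 array left out, this small shift ran from -0.15 (without DMSO replicate 1) to 0.0045 (without DMSO replicate 3). Adjusted over the 4 paralog differences computed, these exact p-values were 0.133, 0.133 and 0.7.

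**Figure D2:**
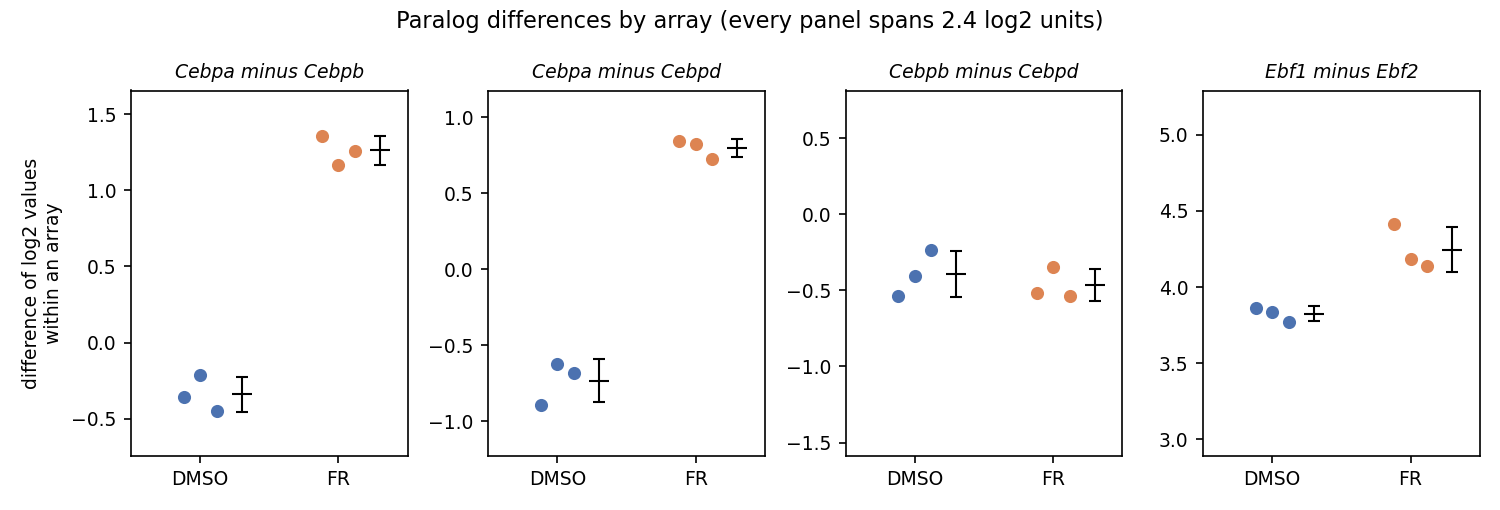
Difference of the log2 values of paralogs within each array (y axis), for DMSO (blue) and FR (orange), with the mean and SD of 3 arrays beside the points. Cebpa minus Cebpb shifted by 1.60 and Cebpa minus Cebpd by 1.53, Ebf1 minus Ebf2 shifted by 0.42, and Cebpb minus Cebpd overlapped between the groups.

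Zfp423 encodes a zinc finger protein that marks committed fat cell precursors and acts upstream of Pparg. Its log2 values were 6.76, 6.66 and 6.68 in DMSO and 7.95, 7.94 and 7.71 in FR. The lowest FR array was still well above all DMSO arrays, and the log2 change was 1.17 (SE 0.09, adjusted p = 5.84e-06). Zfp423 and Pparg were also the members with a C/EBP core motif, TTGCNNAA on either strand, in the 250 bases before a RefSeq start (GRCm38.p6). RefSeq promoter windows were matched by symbol for 8 of the 10 members, 12 windows in all; Cebpd and Ebf2 are the others. The motif was in 2 of these 12 windows and in 9.56% of all 32851 windows. These windows are shown as the ones of the regulators that hold a match, 5′ to 3′ on the gene's strand with the matches in capitals: the last of 3 starts of Pparg at chr6:115421816-115422065 (plus strand) and the first of 2 starts of Zfp423 at chr8:87959596-87959845 (minus strand).
Pparg: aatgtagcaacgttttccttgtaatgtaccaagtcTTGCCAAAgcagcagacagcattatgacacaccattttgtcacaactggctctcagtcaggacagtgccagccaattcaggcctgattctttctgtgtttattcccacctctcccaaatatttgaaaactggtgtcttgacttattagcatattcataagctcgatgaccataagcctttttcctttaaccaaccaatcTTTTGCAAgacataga
Zfp423: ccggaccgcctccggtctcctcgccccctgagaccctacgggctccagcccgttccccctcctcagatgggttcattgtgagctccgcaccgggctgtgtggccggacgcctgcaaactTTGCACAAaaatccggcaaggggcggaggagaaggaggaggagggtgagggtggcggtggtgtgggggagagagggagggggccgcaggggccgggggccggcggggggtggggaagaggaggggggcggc

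In the Pparg window the matches lay 215 to 208 and 16 to 9 bases before the start, and in the Zfp423 window 131 to 124 bases before it. The other windows of Pparg and of Zfp423, and the only window of Cebpa, held no match to these letters. The direct repeat bound by PPAR and RXR, AGGTCA written again after 1 free base, was in 0 of the 12 windows and in 0.0335% of all windows. The core of EBF sites, CCCNNGGG, was in 2 of the 12, those of Cebpb and the second start of Zfp423, against 11.8% of all. The TATA box letters TATAAA were in 2 of the 12, those of Cebpa and the second start of Pparg, against 12.4%. The SMAD palindrome GTCTAGAC was in 0 of the 12 and in 0.167% of all. Such matches describe the sequence and do not show that a factor binds there.

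Klf15 encodes a zinc finger factor that acts with the C/EBP proteins on Pparg in fat cells. It stood at 5.78, 5.77 and 5.84 in DMSO and at 6.30, 6.31 and 6.06 in FR. FR replicate 3 lay between the DMSO arrays and the other FR arrays, and the log2 change was 0.43 (SE 0.09, adjusted p = 0.00579). In DMSO the gene was close to the background guide of 5.65.

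Ppargc1a encodes the coactivator PGC-1α. Its brighter probe set stood at 5.01, 4.92 and 4.88 in DMSO and at 6.52, 6.30 and 6.06 in FR. All DMSO values were under the background guide and all FR values above it, so the rise on this probe set may be understated. It was 2.56-fold in the values as deposited (log2 change 1.36, SE 0.11, limma adjusted p = 8.46e-06). The log2 change of this probe set was 1.26 after quantile normalization and 1.25 after cyclic loess. The SD of 0.23 over the FR arrays was the widest of the 10 regulators. The other probe set went from 5.09, 4.64 and 4.996 to 5.59, 5.59 and 5.75, a log2 change of 0.73 (SE 0.12, adjusted p = 0.00124 over all probe sets). On this dimmer probe set only FR replicate 3 lay above the background guide. Both probe sets moved up without overlap, the dimmer one by a smaller amount, and their mean gave a log2 change of 1.05.

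Cyclic AMP acts on many promoters through CREB, which binds the palindrome TGACGTCA or the shorter TGACG that it contains. The full palindrome was in 0 of the 12 windows and in 1.55% of all. The shorter form, on either strand, was in 3 of the 12, those of Ppargc1a, Klf15 and Cebpb, and in 17.8% of all. These windows are shown as those of the regulators that hold it, with the matches in capitals: Ppargc1a at chr5:51567726-51567975 (minus strand), Klf15 at chr6:90462326-90462575 (plus strand) and Cebpb at chr2:167688665-167688914 (plus strand).
Ppargc1a: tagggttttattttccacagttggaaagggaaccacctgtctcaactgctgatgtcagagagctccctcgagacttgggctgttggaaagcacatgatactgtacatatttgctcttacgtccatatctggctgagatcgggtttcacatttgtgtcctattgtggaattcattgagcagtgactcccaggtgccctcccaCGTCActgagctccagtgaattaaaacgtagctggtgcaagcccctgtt
Klf15: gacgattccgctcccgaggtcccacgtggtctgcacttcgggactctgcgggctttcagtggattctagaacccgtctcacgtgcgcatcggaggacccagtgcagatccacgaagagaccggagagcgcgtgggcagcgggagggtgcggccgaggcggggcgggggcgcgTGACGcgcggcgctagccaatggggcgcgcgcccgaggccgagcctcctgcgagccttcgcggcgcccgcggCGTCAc
Cebpb: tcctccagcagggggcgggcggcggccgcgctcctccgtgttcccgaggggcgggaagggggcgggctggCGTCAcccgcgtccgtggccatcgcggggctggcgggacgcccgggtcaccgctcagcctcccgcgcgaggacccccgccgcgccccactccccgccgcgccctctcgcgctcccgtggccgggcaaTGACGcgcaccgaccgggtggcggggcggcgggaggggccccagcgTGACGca

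The match in the Ppargc1a window lay 49 to 45 bases before the start. Klf15 had matches 78 to 74 and 6 to 2 bases before it. Cebpb had 3, at 180 to 176, 53 to 49 and 7 to 3 bases.

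The regulators that did not pass were Ebf1, Ebf2 and Prdm16. Ebf1, which encodes an early B cell factor that also acts in fat cell precursors, stood at 9.53, 9.54 and 9.50 in DMSO and at 9.87, 9.66 and 9.68 in FR. All FR arrays were higher, but the log2 change of 0.21 (95% interval 0.02 to 0.40) had an adjusted p of 0.0927 in limma. Ebf2, its paralog known from brown fat precursors, stood at 5.67, 5.70 and 5.73 in DMSO and at 5.45, 5.48 and 5.55 in FR. These values lay around the background guide, and the log2 change of -0.21 (95% interval -0.38 to -0.03) had an adjusted p of 0.0747. The calls for these genes depended on scaling: Ebf1 passed as higher after quantile normalization (log2 change 0.27, adjusted p = 0.0242) and cyclic loess (0.30, 0.0142), and Ebf2 as lower after both (-0.33, 0.00897 and -0.32, 0.00946) and after centring (-0.25, 0.0458). Ebf1 minus Ebf2 went from 3.82 ± 0.05 in DMSO to 4.24 ± 0.15 in FR, a shift of 0.42 with no overlap (exact permutation p = 0.1, adjusted 0.133).

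Prdm16 encodes a zinc finger coregulator of brown and beige fat identity. It stood at 6.01, 6.05 and 5.89 in DMSO and at 6.11, 6.07 and 6.02 in FR. The groups overlapped, and the log2 change was 0.08 with a 95% interval of -0.10 to 0.27 (limma adjusted p = 0.483). The upper end of this interval lay below the change of 0.43 found for Klf15, whose own 95% interval was 0.22 to 0.63. The intervals overlapped, and the changes of these genes were not compared by a test.

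**Figure D3:**
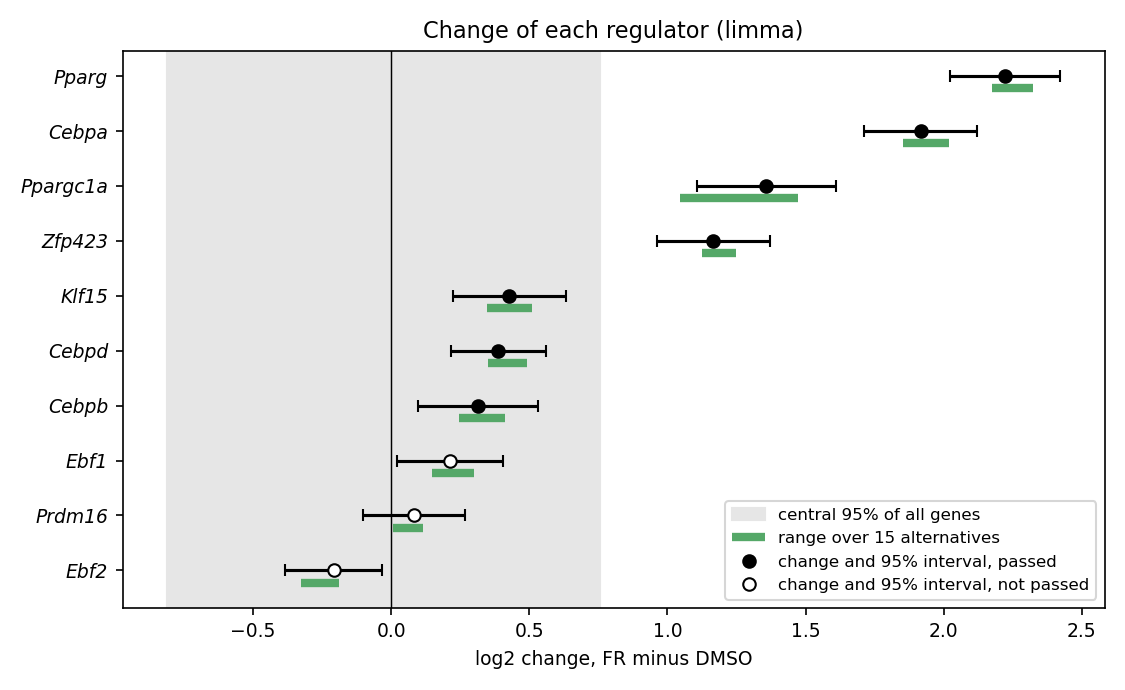
Log2 change of each regulator, FR minus DMSO (x axis), with its 95% interval from limma; filled points passed the test, green bars give the range over 15 alternatives and the grey band the central 95% of all genes (-0.81 to 0.76). Pparg, Cebpa, Ppargc1a and Zfp423 lie outside the grey band, and the other 6 inside it.

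Of 24 other transcription factors listed for a role in fat cell formation, 4 rose and 2 fell. This share of 25% was near the 27.9% of all genes, and the median log2 change was 0.11. Klf9 rose by 0.68, Klf5, an early activator of Pparg, by 0.57 and Tcf7l1 by 0.47, and Klf4 and Klf6 fell by 0.46 and 0.36. Rxrg, which encodes a partner receptor of PPARγ, rose by 0.37 within the background range (4.15 to 4.52). The other partner genes did not pass, with log2 changes of 0.24 for Rxra (adjusted p = 0.0764) and 0.16 for Rxrb (0.184). Cebpg and Ebf3, of the same families as the members, had changes of 0.24 (adjusted p = 0.0739) and 0.23 (0.0523).

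Repressors of fat cell formation went both ways. Of 19 measured, 5 rose and 6 fell (57.9% passed, against 27.9% of all genes), with a median of -0.01. Tcf7l2, a nuclear effector gene of Wnt signalling, rose by 1.33, Dlk1, a membrane protein gene of preadipocytes, by 1.11 and Nr2f2 by 0.79. Hes1, a Notch target, fell by 1.08, and Ddit3, which encodes a C/EBP protein that blocks the DNA binding of its partners, fell by 0.73 (adjusted p = 0.000145). The factors Gata2 and Gata3, which repress Pparg in preadipocytes, had log2 changes of 0.05 and 0.15 that did not pass.

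Among 15 other nuclear receptor coactivators and corepressors, 2 rose, 1 fell and 12 did not pass (20% passed, against 27.9% of all genes), with a median of -0.04. Ppargc1b, the closest relative of Ppargc1a, rose from 5.89 ± 0.03 to 6.58 ± 0.06, a log2 change of 0.69 (adjusted p = 9.35e-05). The steroid receptor coactivator gene Ncoa1 rose by 0.39, and Lpin1, which encodes a phosphatidate phosphatase that also acts as a coactivator, fell by 0.52. The third gene of the PGC-1 family, Pprc1, had a log2 change of 0.02 (adjusted p = 0.903).

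Of 20 genes known as PPARγ targets in fat cells, 12 rose, 1 fell and 7 did not pass. The share that passed was 65%, against 27.9% of all genes, and the median was 0.49. Those with the largest changes were Adipoq (3.05), Fabp4 (2.44), Cd36 (2.28) and Angptl4 (1.31), and the fall was that of Lpin1. Adipoq and Cd36 were under the background guide in DMSO (4.82 and 4.04), so their rises may be understated. The list was uneven: the lipid droplet genes Plin1 and Plin2 rose by 0.96 and 0.35, while the droplet gene Cidec (0.11), the gluconeogenic gene Pck1 (0.06) and the insulin-responsive glucose transporter gene Slc2a4 (0.01) did not pass. Cidec and Pck1 lay under the background guide in both groups, as did Lep, the leptin gene of mature fat cells (4.16 and 4.27).

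Of 19 brown and beige fat genes, 8 rose and 1 fell (47.4% passed, against 27.9% of all genes), with a median of 0.31. Dio2, a thyroid hormone activating enzyme gene that responds to cyclic AMP, rose by 1.17 from 5.14. That level was under the background guide, so this rise may be understated. Cox8b, Otop1 and Eva1a, which also rose, were under the guide in DMSO as well (5.28, 5.60 and 5.63). How far the median change of 0.14 of the olfactory receptor genes touches such dim genes was not tested. Bmp7 rose by 0.84 and the potassium channel gene Kcnk3 by 0.74, and the respiratory chain gene Cox7a1 fell by 0.74. The defining gene Ucp1 stood at 3.73 ± 0.12 in DMSO and 4.08 ± 0.29 in FR, both under the background guide, and did not pass (adjusted p = 0.0748). Cidea (3.87 and 3.94) and Elovl3 (4.26 and 4.34) were under it as well. Ucp1, Cidea and Elovl3 were picked out as defining genes after their values were seen.

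Genes listed as responding to PGC-1α went both ways. Of 17 measured, 2 rose and 2 fell (23.5%, near the 27.9% of all genes), with a median of -0.02. The rises were those of Vegfa (0.89) and Errfi1 (0.63), and the falls those of the carnitine transferase gene Cpt1a (-0.38) and the mitochondrial fusion gene Mfn2 (-0.36). The list was drawn up for this report, and whether Errfi1 belongs in it was not checked. The log2 changes of Tfam, the mitochondrial transcription factor gene, and of the cytochrome gene Cycs were 0.22 (adjusted p = 0.109) and 0.19 (adjusted p = 0.173).

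**Figure D4:**
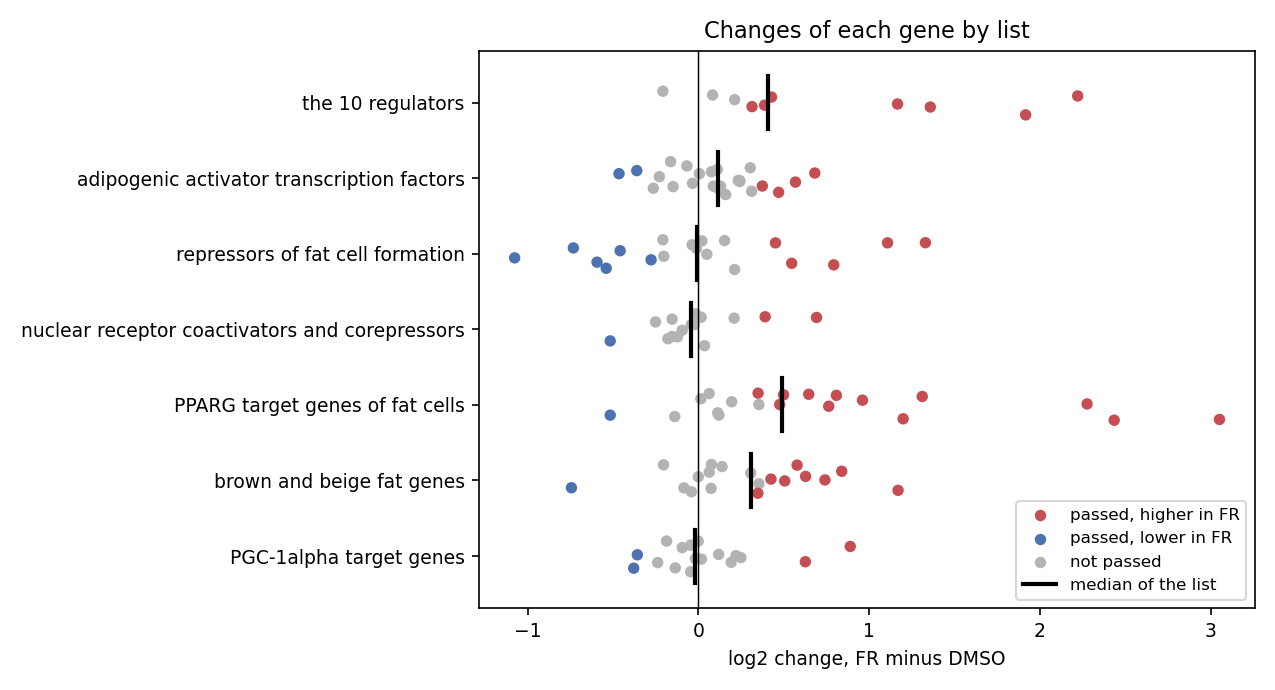
Log2 change of each gene, FR minus DMSO (x axis), for the 10 regulators and 6 lists of related genes (y axis); red and blue points passed as higher and lower, grey did not pass, and black bars are medians. The medians were 0.41 for the regulators, 0.49 for PPARγ targets and 0.31 for brown and beige fat genes, and lay between -0.04 and 0.11 for the other lists.

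Markers of other skin cell types moved with the treatment beside the regulators. Keratinocytes and sebaceous cells also use C/EBP and PPAR genes. Of 20 keratinocyte markers, 16 rose and none fell (80% passed, against 27.9% of all genes, median 0.94). Their mean level lay between 5.87 and 5.97 on the DMSO arrays and between 6.86 and 6.96 on the FR arrays. Krt1, Epcam, Lor and Ivl were under the background guide in both groups. Of 10 macrophage markers 2 rose, Cd14 and Fcer1g, none fell, and 7 were under the guide in both groups, Adgre1, Itgam and Ptprc among them; the mean level was 4.93 to 5.08 in DMSO and 5.08 to 5.24 in FR. Muscle markers rose in 6 of 7 cases (85.7% passed, mean level 5.62 to 5.67 and 6.41 to 6.48), with 2 under the guide in both groups. Endothelial markers rose in 3 of 6 (50% passed, 5.10 to 5.14 and 5.40 to 5.46), with 4 under it in both groups. Some of the rises counted here were of genes under the guide in both groups: Lor, Fcer1g, Myf5, Tek and Emcn. The part of these cell types in the rises of Pparg, Cebpa and the other regulators was not tested.

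The genes whose pattern was most like that of a member were found by the distance between log2 values centred on their own mean over the 6 arrays. For Pparg these were Srpx (distance 0.15), Wfdc12 (0.17), Cxcl2 (0.19), Lrrn3 (0.19) and Actc1 (0.21), with log2 changes from 2.14 to 2.32. Cebpa was nearest to Peg10, Rspo1 and Lrp3, Zfp423 to Cldn1, Adam23 and Dgat1, and Ppargc1a to P3h2, Atoh8 and Aldh1a7. For the smaller rises they were Ormdl3, Cdkn2b and Imp3 (Cebpb), Aatk, Ibtk and Il17ra (Cebpd), and Dhdh, Adam12 and Osgep (Klf15). With 2 groups of arrays, such likeness rests largely on the size of the change between them.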

How the data were processed

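The deposited table holds 1 log2 value per probe set and array, made by the authors with RMA in the oligo package, per the submitters' processing notes; versions are not given in the sources used here. Of 35556 probe sets, 21789 had 1 gene symbol. A gene with several was represented by the probe set with the highest mean over the 6 arrays, leaving 19938 genes. FR was compared with DMSO in limma 3.58.1 (R 4.3.3; lmFit and eBayes, two-sided, no covariate besides group), adjusted by Benjamini-Hochberg over all genes, with no filter on dim values, so all 10 members entered. Paralog differences were tested by exact permutation of the arrays. The limma step was tested on simulated data.

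Nothing in the labels says that samples within a group come from different cultures or mice; p-values therefore cover the spread between samples only, and that spread may be technical. The number of arrays limits the precision, with a median standard error of 0.10 for a log2 change. The members, gene lists and tests were chosen with earlier results of these data known, and the motifs after the promoters were seen. The named genes are all members with every probe set, the most changed genes that passed in each list (4 at most), up to 2 that passed in the direction of the fewer, defining markers, and the genes most like a member (5 for Pparg, 3 for other members that passed); other list genes were named after their values were seen.

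The 15 alternatives changed the scaling (quantile, median centring, cyclic loess), the probe sets (their mean, or each on its own), the variance model (robust with a trend, or weights per array) or the genes (dim ones out, that is not above 5.65 on 3 arrays), blocked on the replicate number, or omitted 1 array at a time. Slide and scan batches were not analysed here.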

Additional observations from a re-analysis of the deposited data

How the results depend on the processing

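Of 150 results for single regulators under the 15 alternatives, 139 kept their direction and their side of the threshold, 4 fell below it (all for Cebpb), 7 newly passed it (Ebf1 and Ebf2) and 0 reversed. The number of regulators that passed ran from 6 to 9, and the number of all genes from 4033 to 6032. Same-numbered arrays did not deviate together (correlations of -0.07, 0.05 and -0.03), so numbers were not taken as pairs. With the replicate block, 4977 genes and 6 regulators passed, and the lost regulator was Cebpb (adjusted p = 0.0555). Ebf1 also passed with a variance trend and robust moderation (limma adjusted p = 0.0255) and Ebf2 with dim genes left out (0.0398). Ebf2 met that filter only through its DMSO arrays, where it was higher, so this pass is no added support for its fall. The shift of Ebf1 minus Ebf2 was 0.60 after quantile normalization and 0.62 after cyclic loess, against 0.42 in the values as deposited; the cause was not tested. Leaving out each array gave shifts of 0.34 to 0.47. A filter on dim genes kept all 10 regulators, but Ppargc1a met it only through its FR arrays and Ebf2 only through its DMSO arrays. Their being kept therefore follows from the difference between the groups. The paralog differences were not computed under the settings that change only the variance or the genes tested.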

Other observations

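Markers of adipocyte progenitors differed among themselves. Of 7 measured, 4 rose and 1 fell (71.4% passed, against 27.9% of all genes). Dlk1 rose by 1.11 and Pi16, a gene of uncommitted fascial progenitors, by 1.09, Cd34 by 0.38 and Cd24a by 0.34, while Dpp4, which marks the same progenitors as Pi16, fell by 0.90. Pi16 was under the background guide of 5.65 in DMSO (4.74). The log2 changes of Pdgfra (-0.03) and Icam1 (0.04) did not pass.

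FR replicate 3 was the lowest of the FR arrays for 7 of the 10 regulators, against 40.2% of all genes.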
